A study of Sus scrofa domesticus with 34 samples.

Results

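The 8 genes described here are COL1A1, COL1A2, COL3A1, POSTN, FBLN1, FN1, LUM and DCN, which encode proteins of the extracellular matrix that fibroblasts secrete. They were chosen by name after an earlier look at these counts, in which 1 library, combination replicate 3, stood high for them. The values of that library, and every comparison of the combination with another diet, are therefore a description and carry no test, and the sexes were tested for the members without that library. Each gene had 1 Ensembl identifier among the 31907 genes in the files. All 8 passed edgeR's filter on low counts, which 13974 genes passed in all.

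The libraries came from 34 pigs (Sus scrofa domesticus), 1 library per animal, labelled muscle, and were made with a kit that reads the 3′ end of polyadenylated RNA. 8 pigs, of which 4 were female and 4 castrated male, ate the 25(OH)D diet, with 2000 IU of 25(OH)D3 per kg feed as growers, 1500 IU as finishers, and 0 IU of cholecalciferol. Another 8 (4 female, 4 castrated male) ate the combination diet, which gave 2000 IU of cholecalciferol to growers and 1500 IU to finishers with 1000 IU of 25(OH)D3 in each phase. For 10 pigs (6 female, 4 castrated male) cholecalciferol was increased to 3000 IU in the grower and 2500 IU in the finisher feed. The control was standard cholecalciferol, 2000 IU and then 1500 IU, in 8 pigs (4 female, 4 castrated male). Cholecalciferol is vitamin D3, and 25(OH)D3, or calcidiol, is the form that the liver makes from it. All 4 diets held vitamin D in one of these forms, so that no group was without it.

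Collagen I is built from chains that COL1A1 and COL1A2 encode, and it forms the thick fibrils of tendon, skin and the sheaths around muscle. Collagen III, from COL3A1, joins it in softer tissue and vessel walls. Fibronectin (FN1), fibulin-1 (FBLN1) and periostin (POSTN) are glycoproteins that link fibrils, cells and growth factors, and decorin (DCN) and lumican (LUM) are small leucine-rich proteoglycans that sit on collagen fibrils. In muscle these proteins come mainly from fibroblasts between the fibres, and in brain from cells of the meninges and of vessel walls.

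Total gene counts ran from 1.34 to 30.4 M per library (M, 1000000) with a median of 6.67 M. Depth stepped with the numbers of the deposited files, with 4.08 to 13.2 M in file numbers 1 to 24, 16.8 to 30.4 M in 25 to 29 and 1.34 to 2.69 M in 30 to 34. These blocks are defined by file number alone. The last block, 30 to 34, held 4 combination libraries (replicates 5 to 8) and 1 on 25(OH)D (replicate 8). Values below are CPM, counts per 1000000 after TMM scaling, which evens out libraries by the bulk of their genes. Skeletal muscle transcripts (a list of 7 genes with an identifier, such as the muscle actin ACTA1) summed to a median of 2685 CPM over the 33 libraries other than combination replicate 3, beside 4978 CPM for 6 neuron genes, 4880 CPM for 5 oligodendrocyte genes and 2225 CPM for 6 astrocyte genes. The tissue label was thus not matched by muscle transcripts alone. The Y-linked gene EIF1AY ranged in females from 4.73 to 6.38 CPM in the 4 libraries of file numbers 30 to 34 and from 0.545 to 4.55 CPM in the other 14, against 0.794 to 16.1 CPM in 16 castrated males.

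The name fibroblast genes was checked against 21 fibroblast markers, of which 15 had an identifier and 12 passed the filter. The marker sum was between 204 and 760 CPM in the 33 libraries, with a median of 295 CPM, and VIM, an intermediate filament gene that astrocytes and vessels also express, made up a median of 122 CPM on its own. PDGFRA, a receptor of fibroblasts and of oligodendrocyte precursors, had a median of 15.9 CPM and SERPINF1, a secreted inhibitor, 54.8 CPM. The more restricted fibroblast genes DPT and TCF21 had medians of 0.153 and 0 CPM. Fewer cells of a type and less RNA per cell cannot be told apart in such bulk libraries.

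COL1A1 was the most abundant of the 8 genes, with a median of 52.3 CPM over the 34 libraries, and FN1 came next with 25.6 CPM. They were followed by COL1A2 (18.9 CPM), COL3A1 (15.0 CPM), DCN (9.15 CPM), FBLN1 (6.30 CPM), POSTN (3.70 CPM) and LUM (3.35 CPM). Since each read stands for 1 transcript end, these levels need no correction for length. The annotation was not given and 16.4 to 29.9% of reads had no feature, so the share of ends counted may differ between genes. The order held in most single libraries: COL1A1 was above FN1 in 31 of 34, FN1 above COL1A2 in 27, COL1A2 above COL3A1 in 27, COL3A1 above DCN in 29, DCN above FBLN1 in 26 and FBLN1 above POSTN in 27. POSTN was above LUM in only 20 of 34, so that these neighbours did not differ beyond their spread. The counts behind the levels were small for the last genes, with 2 to 595 reads per library for POSTN and 2 to 115 for LUM, against 89 to 1693 for COL1A1 and 42 to 1726 for FN1.

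Combination replicate 3, a castrated male with 4.29 M counts, held the highest level of all 8 genes among the 34 libraries. It held the highest level of 5.92% of the 13974 genes tested. FN1 stood at 356 CPM there (1726 reads), against a median of 25.6 CPM and a maximum of 121 CPM in the other 33 libraries, a 13.9-fold difference from the median. POSTN, a matrix protein of tendon, periosteum and healing tissue, stood at 123 CPM (595 reads), against a median of 3.68 and a maximum of 19.6 CPM, a 33.4-fold difference. It was the member that departed most, and ranked 5 of 13974 genes by its log2 ratio to the median (0.5 CPM added to both values).

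The collagens followed. COL3A1 reached 150.4 CPM in combination replicate 3, against a median of 14.9 and a maximum of 35.3 CPM in the others (10.1-fold over the median). COL1A2 reached 133 CPM, against a median of 18.8 and a maximum of 79.2 CPM (7.06-fold), and COL1A1 190.0 CPM, against 51.7 and 107 CPM (3.68-fold). The collagen I genes thus stood closer together in this library, with a COL1A1 to COL1A2 ratio of 1.43, which lay inside the range of 0.956 to 7.01 of the other 33 (median 2.60). The COL3A1 to COL1A1 ratio of 0.791 lay above their range of 0.120 to 0.521 (median 0.270).

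FBLN1 stood at 41.3 CPM in combination replicate 3, against a median of 6.26 and a maximum of 17.0 CPM in the others. DCN stood at 55.6 CPM, against a median of 9.06 and a maximum of 24.7 CPM. LUM departed least, at 9.71 CPM (47 reads), against a median of 3.25 and a maximum of 9.09 CPM in 25(OH)D replicate 6. Thus 7 of the 8 genes were more than 1.5 times above the next library there and LUM was not, and 1.61% of all genes tested were. LUM and DCN lie next to each other in the RefSeq order of genes (Sscrofa11.1), and the DCN to LUM ratio of 5.72 lay inside the range of 0.293 to 10.8 of the other libraries. Of the other neighbours with a value, none was highest in combination replicate 3. COL5A2, a minor fibrillar collagen next to COL3A1, had 23.1 CPM there, against a median of 15.2 and a maximum of 41.2 CPM.

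**Figure D1:**
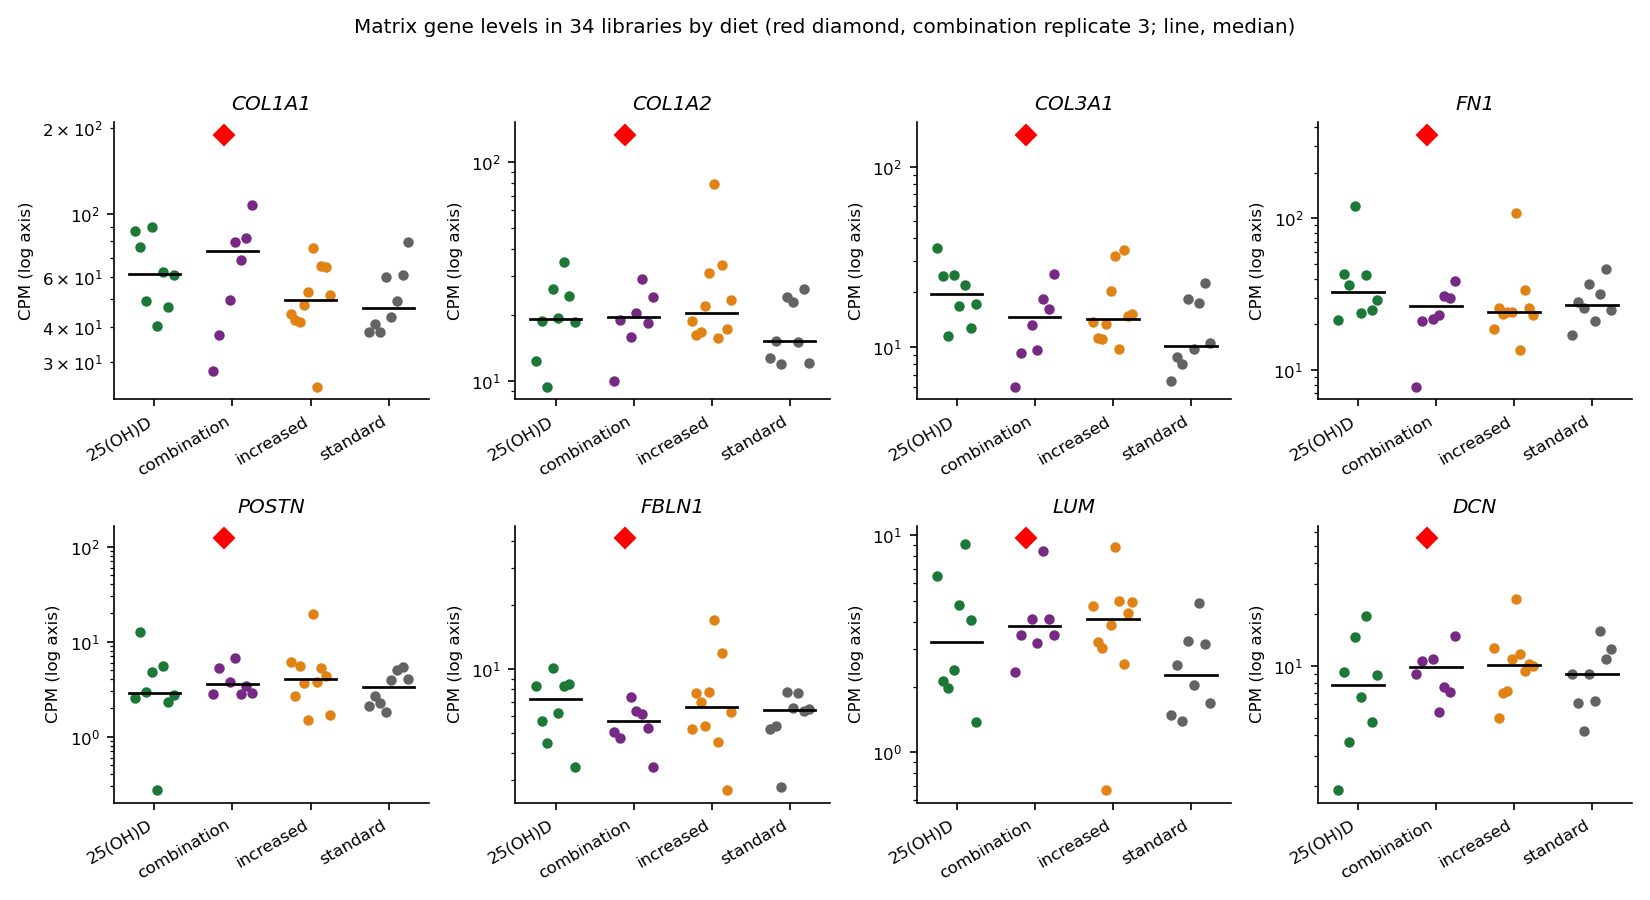
CPM of each gene (log axis) in the 34 libraries by diet, with 1 point per library, a line at the median of the diet and a red diamond for combination replicate 3. In each panel the diamond is the highest point. The other 7 combination libraries lie among those of the other diets, apart from replicates 8 and 1 in some panels. Replicate 8 lies above the other diets for COL1A1 (107 CPM, against at most 90.2 CPM). Replicate 1 lies below them for FN1 (7.77 CPM, against at least 13.6 CPM) and, by a small margin, for COL3A1.

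The matrix genes around the members were higher in part in combination replicate 3. The counts in the lists that follow leave the 8 members out. Of 8 small leucine-rich proteoglycans tested, 6 were highest there, and their sum was 477 CPM, against a median of 234 and a maximum of 322 CPM in the others. PRELP, which anchors basement membranes to collagen, stood at 45.2 CPM (median 7.04), while PODN (61.3 CPM, median 51.6) and the abundant BGN (131 CPM, median 68.5, maximum 156) did not stand out. Of 7 fibrillar collagen genes 2 were highest there, and their sum of 123 CPM lay near the median of 102 CPM. Of 26 matrix glycoprotein and elastic fibre genes 10 were highest, of 18 basement membrane genes 9 and of 15 other collagens 5. CCN3, a matricellular protein, stood at 295 CPM (median 10.5), COL8A1, a short-chain collagen of vessel walls, at 30.2 CPM (median 2.32), and COL12A1, a collagen on the fibril surface, at 18.4 CPM (median 1.5). COL27A1, the second most abundant fibrillar collagen gene, did not stand out, with 43.4 CPM (median 41.5). Among 18 enzymes of collagen synthesis and cross-linking 7 were highest, with LOX, which cross-links collagen, at 8.47 CPM (median 0.945) and PCOLCE, which helps trim procollagen, at 73.9 CPM (median 18.4). Of 17 matrix proteases and inhibitors 6 were highest (TIMP1 39.0 CPM, median 9.42), of 18 TGF-beta pathway genes 7 (TGFBR2 38.6 CPM, median 10.5) and of 16 matrix receptors 5 (CD44 24.4 CPM, median 4.25).

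Markers of several cell types moved with the 8 genes in combination replicate 3, and their part in the result was not tested. Of 12 fibroblast markers tested 4 were highest there (CLEC3B, S100A4, IGFBP6 and SFRP4), all 12 lay above the median of the others, and the list summed to 825 CPM, against 204 to 760 CPM. Of that sum VIM held 531 CPM, while DPT and TCF21 were at 0. Leptomeninges markers summed to 510 CPM, against 72.6 to 257 CPM, and 7 of 9 tested were highest, led by the transporters SLC6A20 (272 CPM, median 49.6) and SLC47A1 (40.7 CPM, median 1.46). FOXC1, FOXD1, TBX18 and PTGDS of that list were at 0, of which FOXC1 and FOXD1 were at 0 in all libraries. ZIC4 of that list was not highest there (53.3 CPM, median 40.6). It held 206 CPM of the highest sum of the other libraries, that of standard cholecalciferol replicate 6. Mural cell markers summed to 532 CPM, against 77.0 to 260 CPM, and 7 of 12 were highest. These were mostly genes of smooth muscle contraction, such as ACTA2 (162 CPM, median 17.8), TAGLN (101 CPM, median 7.77) and MYH11 (50.2 CPM, median 5.03). Among pericyte genes, PDGFRB was highest there (44.2 CPM, median 27.8, maximum of the others 40.4), and RGS5 was not (47.7 CPM, median 33.9, maximum 65.1). Endothelium markers summed to 266 CPM, against a maximum of 240 CPM in the others (4 of 11 highest). Pancreatic acinar markers summed to 403 CPM, against a maximum of 39.8 CPM, with the digestive enzyme genes CPA1 (129 CPM, median 2.87) and PLA2G1B (97.5 CPM, median 0.837). CELA2A, CTRL and PTF1A of that list were at 0. Choroid plexus markers summed to 163 CPM, against a median of 29.3 and a maximum of 143 CPM, with TTR, a carrier of thyroid hormone, at 123 CPM. Adipocyte markers summed to 44.2 CPM, against a maximum of 42.5 CPM, with 0 of 4 highest. Epithelium markers summed to 48.3 CPM, against a maximum of 14.2 CPM, with EPCAM at 0.413 CPM. Skeletal muscle (2830 CPM, 0 of 7 highest), neuron (4376 CPM, 0 of 6), oligodendrocyte (7389 CPM, 0 of 4) and astrocyte markers (3785 CPM, 0 of 6) lay inside the range of the other libraries.

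**Figure D2:**
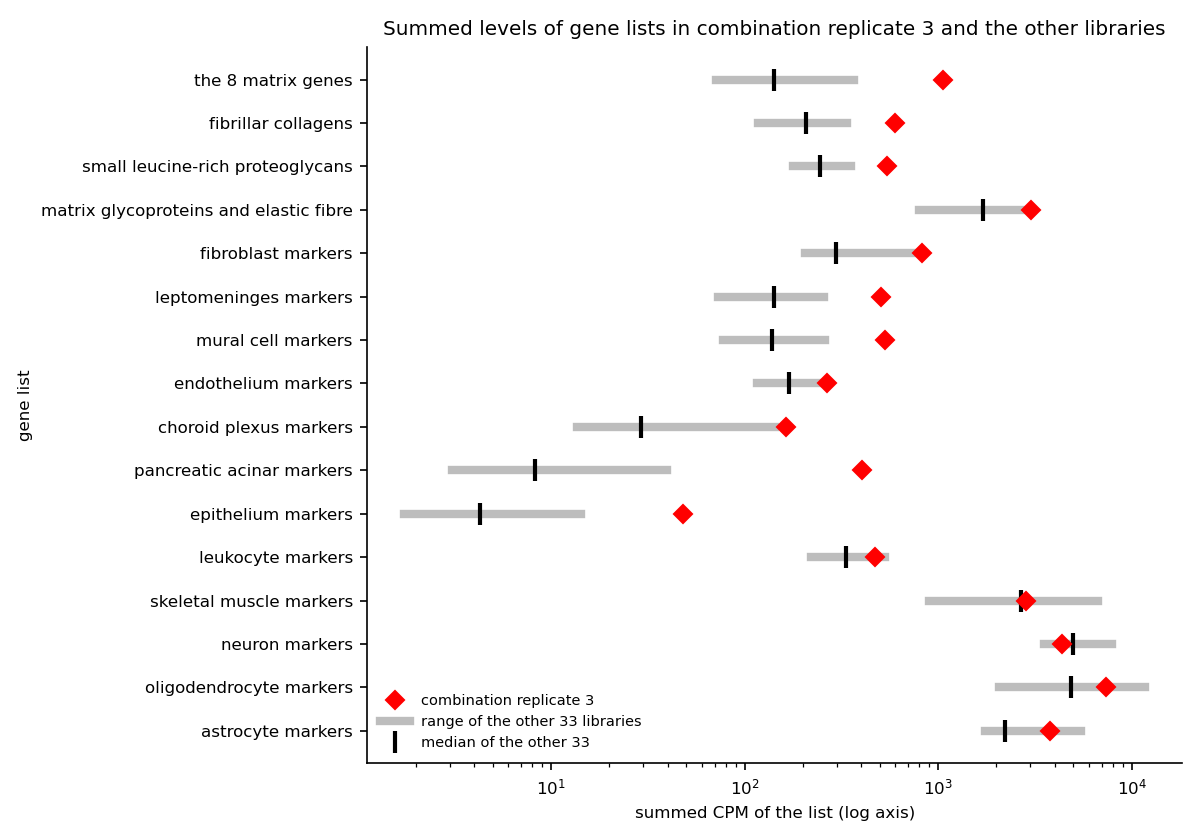
Summed CPM of gene lists (log axis), with a red diamond for combination replicate 3, a grey bar for the range of the other 33 libraries and a black tick for their median. The diamond lies beyond the bar for the 8 genes (1059 CPM, against at most 366 CPM) and the matrix lists, which here include members. It is also beyond it for fibroblast, leptomeninges, mural cell, endothelium, choroid plexus, pancreatic acinar and epithelium markers. For leukocyte, muscle, neuron and glia markers it lies inside. Without the members, fibrillar collagens (123 CPM, against at most 252 CPM) and matrix glycoproteins (2492 CPM, against at most 2712 CPM) lie inside the range of the others. The proteoglycans (477 CPM, against at most 322 CPM) do not.

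Among all tested genes with a symbol, the 15 with the largest ratio in combination replicate 3 held POSTN and FN1. The others were PLA2G1B, DLK1, CPA1, CCN3, PMP2, SLC47A1, DSP, MPZL2, CDH1, MGP, RET, TTR and CRABP2. DLK1, a membrane protein of progenitor and endocrine cells, stood at 133 CPM (median 1.55), and MGP, an inhibitor of matrix calcification, at 183 CPM (median 10.8). The junction genes DSP (21.7 CPM, median 0.710) and CDH1 (24.0 CPM, median 0.931) and the peripheral myelin gene PMP2 (44.4 CPM, median 1.20) were among them. By the same ratio COL3A1 ranked 32, COL1A2 63, FBLN1 80, DCN 95, COL1A1 196 and LUM 390 of 13974 genes.

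Apart from that library, increased cholecalciferol replicate 6, a female, stood highest. The sum of the 8 genes was 366 CPM there, against a median of 142 CPM over the 33 libraries, and 6 of the 8 were among the 3 highest of the 34. It held 79.2 CPM of COL1A2, 109 CPM of FN1, 24.7 CPM of DCN, 19.6 CPM of POSTN and 17.0 CPM of FBLN1. COL1A1 (75.7 CPM) and COL3A1 (31.7 CPM) lay above their medians as well, and its COL1A1 to COL1A2 ratio of 0.956 was the lowest of all libraries. Fibroblast markers summed to 760 CPM in this library, of which VIM was 552 CPM, leptomeninges markers to 252 CPM, mural cell markers to 198 CPM and pancreatic acinar markers to 3.26 CPM.

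In 25(OH)D replicate 4, a castrated male, FN1 stood at 121 CPM, its highest level outside combination replicate 3, with COL1A1 at 90.2 CPM, COL3A1 at 24.9 CPM and DCN at 14.9 CPM. In that library 7 of the 8 genes lay above the median, and their sum was 295 CPM. In 25(OH)D replicate 6 all 8 genes lay above the median of the 33 libraries, with the highest LUM level outside combination replicate 3 (9.09 CPM). At the other end, combination replicate 1 had the lowest sum, 71.0 CPM, and 0 of 8 genes above the median. Increased cholecalciferol replicate 7 came next with 88.5 CPM and 3 of 8 above the median. Standard cholecalciferol replicate 1 had 0 of 8 above it (92.0 CPM), and replicate 3 had 1 of 8 (94.7 CPM).

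**Figure D3:**
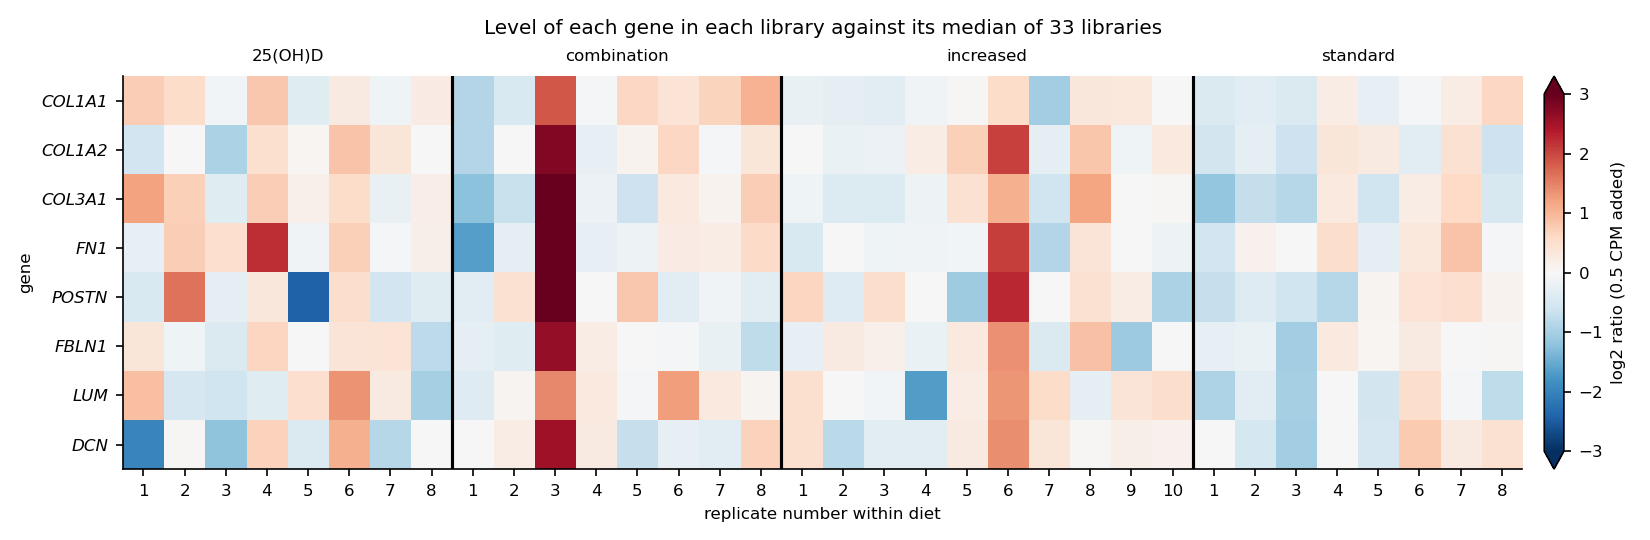
Log2 ratio of each gene's CPM in each library to its median over the 33 libraries other than combination replicate 3 (0.5 CPM added), by diet and replicate number, where values beyond the ends of the colour scale are drawn in its end colours. Combination replicate 3 is red in all 8 rows and increased cholecalciferol replicate 6 in all 8 rows to a lesser degree.

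Even without combination replicate 3, most of the genes varied more between libraries than genes of a like level did. The coefficient of variation of FN1 was 71.1% over the 33 libraries, above that of 99.2% of 2672 genes with a median within 1.5 times its own. It was 80.5% for POSTN (above 96.3% of such genes), 56.2% for COL1A2 (96.2%), 47.2% for COL3A1 (90.5%), 48.5% for DCN (85.8%) and 33.7% for COL1A1 (84.7%). LUM (55.8%, above 65.8% of such genes) and FBLN1 (41.6%, above 58.2%) varied about as much as other genes of their level. With all 34 libraries the values were 143% for FN1, 264% for POSTN, 90.3% for COL1A2 and 119% for COL3A1.

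The first comparison asked whether 25(OH)D in place of cholecalciferol went with other levels of the 8 genes. No member passed the test, and 0% of the 13974 genes did (quasi-likelihood test of edgeR, p adjusted by Benjamini-Hochberg, threshold 0.05). DESeq2 and limma-voom likewise called 0 genes. Unadjusted, p lay below 0.05 for 452 genes (3.23%) by edgeR, 511 by DESeq2 and 818 by limma-voom, and in edgeR for 0 members. COL3A1 ranged from 11.4 to 35.3 CPM on 25(OH)D with a median of 19.5 CPM, against 6.41 to 22.7 CPM with a median of 10.1 CPM on standard cholecalciferol. The ranges overlapped, and its log2 fold change was 0.68 with a standard error of 0.44 (95% interval −0.22 to 1.58, adjusted p = 1.00 by edgeR). LUM ranged from 1.37 to 9.09 CPM (median 3.23) on 25(OH)D, against 1.39 to 4.88 CPM (median 2.28) on standard cholecalciferol, with a log2 fold change of 0.69 ± 0.38 (SE).

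COL1A1 ranged from 40.2 to 90.2 CPM (median 61.7) on 25(OH)D, against 38.2 to 79.7 CPM (median 46.5) on standard cholecalciferol. FN1 ranged from 21.4 to 121 CPM (median 32.7) on 25(OH)D, against 16.9 to 46.6 CPM (median 27) on standard cholecalciferol. In neither gene were the diets apart, and the log2 fold changes were 0.32 ± 0.26 for COL1A1 and 0.53 ± 0.51 for FN1. Those of COL1A2 (0.23 ± 0.40), POSTN (0.32 ± 0.70), FBLN1 (0.16 ± 0.38) and DCN (−0.14 ± 0.42) were smaller than their standard errors. POSTN ranged from 0.274 to 12.5 CPM on 25(OH)D, against 1.81 to 5.39 CPM on standard cholecalciferol, and without 25(OH)D replicate 2, its highest library, its log2 fold change was −0.26. In all, 7 of 8 members had a log2 fold change above 0, as did 48.3% of all genes tested, and the median was 0.32 over the members and −0.01 over all genes.

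Increased cholecalciferol was set against the standard dose to ask about the amount of the vitamin. No member passed, nor did any other gene (0% of 13974, edgeR; DESeq2 and limma-voom also called 0 genes). Before adjustment 1086 genes (7.77%) and 0 members had p below 0.05 by edgeR, as had 1207 genes by DESeq2 and 1479 by limma-voom. COL1A2 ranged from 15.7 to 79.2 CPM (median 20.5) on the increased dose, against 12 to 26.2 CPM (median 15.2) on the standard dose, with a log2 fold change of 0.64 ± 0.38 (95% interval −0.13 to 1.40, adjusted p = 0.668 by edgeR). LUM ranged from 0.670 to 8.85 CPM (median 4.13) on the increased dose, against 1.39 to 4.88 CPM (median 2.28) on the standard dose, with a log2 fold change of 0.61 ± 0.36. In both genes the ranges overlapped. POSTN (0.64 ± 0.66), COL3A1 (0.47 ± 0.42), FBLN1 (0.31 ± 0.36), FN1 (0.23 ± 0.49), DCN (0.18 ± 0.39) and COL1A1 (0.02 ± 0.25) had log2 fold changes closer to their standard errors or below them.

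All 8 members thus had a log2 fold change above 0 with the increased dose, as did 50.8% of all genes, with a median of 0.39 over the members and 0.01 over all genes. With limma-voom the member median was 0.084, and 6 of 8 were above 0. Leaving out increased cholecalciferol replicate 6 brought the member median to 0.13, FN1 to −0.28, COL1A1 to −0.07 and DCN to −0.01. The adjusted p-values of the 8 genes by edgeR lay between 0.663 and 0.992 with all libraries.

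Between 25(OH)D and increased cholecalciferol the members took no common direction. Again 0 of 8 and 0% of all genes passed (edgeR, with 0 genes by DESeq2 and limma-voom), and without adjustment p was below 0.05 for 1672 genes (12%) and 0 members by edgeR, with 1828 genes by DESeq2 and 2070 by limma-voom. COL1A1 (0.30 ± 0.25), FN1 (0.30 ± 0.50), COL3A1 (0.21 ± 0.42) and LUM (0.08 ± 0.35) had log2 fold changes above 0, and COL1A2 (−0.41 ± 0.38), POSTN (−0.32 ± 0.67), DCN (−0.31 ± 0.40) and FBLN1 (−0.15 ± 0.36) below 0. That is 4 of 8 above 0, beside 50.5% of all genes, with a member median of −0.03. These 3 comparisons share libraries, 25(OH)D, increased and standard cholecalciferol each entering a pair of them.

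Leaving out combination replicate 3, which belongs to none of these diets, narrowed the standard errors, since the fit pools the spread over all diets. The standard error for COL3A1 was then 0.30 on 25(OH)D against standard cholecalciferol, with a log2 fold change of 0.69 and an unadjusted p of 0.0278. COL1A2 on the increased against the standard dose had a log2 fold change of 0.60 ± 0.27 and an unadjusted p of 0.0323. Neither passed after adjustment (adjusted p = 0.999 and 0.637 by edgeR). Each was the only member with an unadjusted p below 0.05 in its comparison. In the same fit 456 of 14129 genes were below it for 25(OH)D against standard cholecalciferol, and 1091 for the increased against the standard dose.

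**Figure D4:**
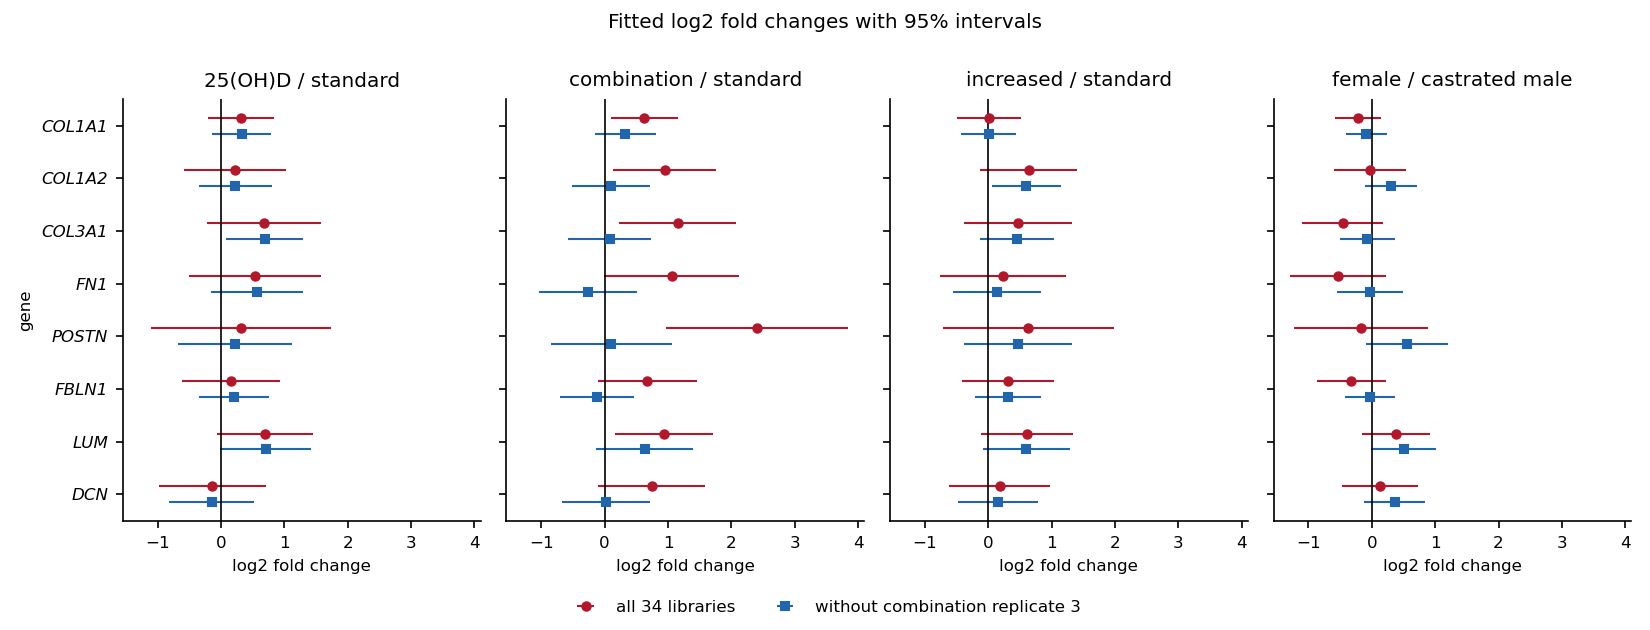
Log2 fold changes of the 8 genes with 95% intervals in 4 comparisons, over all 34 libraries (red circles) and without combination replicate 3 (blue squares). For combination against standard cholecalciferol, shown as a description, the member median is 0.94 with that library and 0.09 without it, while in the 25(OH)D and increased cholecalciferol panels both markers lie close together.

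Within file numbers 1 to 24, where most of the diets other than the combination lie, the member median was 0.61 for 25(OH)D against standard cholecalciferol, 0.63 for the increased against the standard dose and 0.04 for 25(OH)D against the increased dose, and 0 members passed by edgeR. The other blocks of file numbers held too few libraries of these diets for a value of their own. Skeletal muscle transcripts overlapped widely between the diets. The list of 7 summed to 2376 to 6176 CPM (median 2810) on 25(OH)D, 1783 to 6726 CPM (median 3677) on the combination, 1774 to 4031 CPM (median 2785) on increased and 896 to 4554 CPM (median 2337) on standard cholecalciferol. Its median log2 fold change was 0.61 for 25(OH)D and 0.37 for the increased dose, each against standard cholecalciferol. Of the 7 genes 7 and 6 were above 0, beside 48.3% and 50.8% of all genes, and 0 of 7 passed by edgeR. Fibroblast markers summed to 211 to 391 CPM on 25(OH)D (median 290), 224 to 760 CPM on the increased dose (median 320) and 204 to 369 CPM on the standard dose (median 292). Their part in the members' values was not tested.

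The combination diet is described with and without replicate 3. With it, all 8 members had a log2 fold change above 0.5 against standard cholecalciferol, as did 5.93% of the 13974 genes, and 8 of 8 lay above 0, beside 49.5% of all genes. The values were 2.40 for POSTN, 1.16 for COL3A1, 1.06 for FN1, 0.95 for COL1A2, 0.94 for LUM, 0.74 for DCN, 0.67 for FBLN1 and 0.63 for COL1A1. Without it, only LUM (0.63) remained above 0.5, beside 4.92% of 14129 genes, and the other 7 ran from −0.26 for FN1 to 0.33 for COL1A1. The member median was 0.94 with the library and 0.09 without it, and with limma-voom over all 34 libraries it was 0.35.

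The levels show the same. Without replicate 3, POSTN ranged from 2.83 to 6.80 CPM (median 3.38) on the combination diet, against 1.81 to 5.39 CPM (median 3.32) on standard cholecalciferol. FN1 ranged from 7.77 to 38.6 CPM (median 23.1), against 16.9 to 46.6 CPM (median 27), and COL3A1 from 6.0 to 25.3 CPM (median 13.2), against 6.41 to 22.7 CPM (median 10.1). DCN ranged from 5.44 to 15.0 CPM (median 9.06), against 4.18 to 16.1 CPM (median 9.02), FBLN1 from 3.45 to 7.39 CPM (median 5.25), against 2.78 to 7.77 CPM (median 6.39), and COL1A2 from 10.0 to 29.3 CPM (median 18.9), against 12 to 26.2 CPM (median 15.2). All these ranges overlapped.

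COL1A1 differed among the 7 remaining combination libraries by file number. It stood at 69.0 to 107 CPM in replicates 5 to 8, of file numbers 31 to 34. In replicates 1, 2 and 4, of file numbers 19, 22 and 25, it stood at 27.9, 37.5 and 49.8 CPM. The skeletal muscle list summed to 4524 to 6726 CPM in the 4 and to 1783 to 2449 CPM in the 3, and its part was not tested. The only other library of file numbers 30 to 34, 25(OH)D replicate 8, had 61.1 CPM of COL1A1.

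Against increased cholecalciferol, 5 of 8 members had a log2 fold change above 0.5 with replicate 3, beside 4.60% of all genes, and 0 of 8 without it, beside 4.96%. All 8 were above 0 with it (49.9% of all genes). The member median was 0.59 with the library and −0.37 without it, and POSTN had 1.76 and −0.36. For 25(OH)D against the combination, 0 of 8 were above 0 with replicate 3, beside 49.3% of all genes, and the member median was −0.52, against 0.12 without it. The combination comparisons, too, share libraries with each other and with those above. Of all genes 0% passed in these 3 comparisons with edgeR, and 607, 578 and 1058 genes had an unadjusted p below 0.05 for combination against standard, combination against increased cholecalciferol and 25(OH)D against combination.

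Females were compared with castrated males. By edgeR 11 genes passed, 0.0787% of those tested, all of them lower in females, and unadjusted p-values were below 0.05 in 919 genes (6.58%). Without combination replicate 3, 11 of 14129 genes passed and 0 of the 8 members did, with adjusted p-values of the members between 0.798 and 0.990 by edgeR. Over all 34 libraries the members are given as a description. FN1 had a log2 fold change of −0.54 ± 0.37, COL3A1 −0.46 ± 0.31, FBLN1 −0.32 ± 0.27, COL1A1 −0.22 ± 0.18, POSTN −0.18 ± 0.52, COL1A2 −0.03 ± 0.28, DCN 0.13 ± 0.30 and LUM 0.38 ± 0.26. These values rest on combination replicate 3, a castrated male. With it 2 of 8 members were above 0, beside 51.2% of all genes, and the median was −0.20. Without it 4 of 8 were, beside 50.3%, the median was 0.14, and FN1 stood at −0.03, COL3A1 at −0.07, COL1A2 at 0.30 and POSTN at 0.56.

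The sex ranges overlapped for every member. LUM had the highest log2 fold change towards females over all 34 libraries, and POSTN (0.56) was above LUM (0.50) without combination replicate 3. LUM ranged from 1.37 to 9.09 CPM (median 4.00) in 18 females, against 0.670 to 9.71 CPM (median 2.86) in 16 castrated males. Without combination replicate 3 its highest castrated male was at 6.51 CPM. COL1A1 ranged from 24.7 to 82.1 CPM (median 56.5) in females, against 27.9 to 190.0 CPM (median 50.8) in castrated males. Without combination replicate 3 the highest castrated male for COL1A1 was at 107 CPM.

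Whether the 8 genes rise and fall together was asked over the 33 libraries other than combination replicate 3, on log2 CPM. Of 28 pairs, 8 passed by Spearman's rho and 11 by Pearson's r (two-sided permutation test, 100000 permutations, Benjamini-Hochberg over the 28 pairs, adjusted p below 0.05). The rho values ran from −0.00 to 0.72 with a median of 0.32, and 27 of 28 were above 0. The fibrillar collagens and fibronectin were the most alike. COL1A1 and COL3A1 had rho = 0.72 and r = 0.71, COL3A1 and FN1 0.65 and 0.67, COL1A2 and COL3A1 0.60 and 0.62, and COL1A1 and FN1 0.59 and 0.65. Further pairs that passed by rho were COL1A2 with FBLN1 (rho 0.50), COL3A1 with FBLN1 (0.46), POSTN with DCN (0.45) and COL1A2 with FN1 (0.43).

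The chains of collagen I themselves were less alike, with rho = 0.39 and r = 0.39 (adjusted permutation p = 0.0699 and 0.0505). That pair passed by both measures within file numbers 1 to 24 (rho = 0.50 and r = 0.49, adjusted permutation p = 0.0491 and 0.0422) and with CPM by total counts (0.0283 and 0.0489). The neighbouring genes LUM and DCN had rho = 0.34 and r = 0.25 (adjusted permutation p = 0.115 and 0.228), and FN1 and LUM had rho = −0.00. All pairs share the libraries, their depth and their scaling, and LUM and POSTN rest on few reads. With combination replicate 3 the number of pairs that passed by rho was 14, and within file numbers 1 to 24 it was 10 over 23 libraries. Without the 2 libraries farthest from the median of the first gene of a pair, 5 passed, namely COL1A1 with COL3A1, COL1A1 with FN1, COL1A2 with COL3A1, COL3A1 with FN1 and COL3A1 with DCN.

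**Figure D5:**
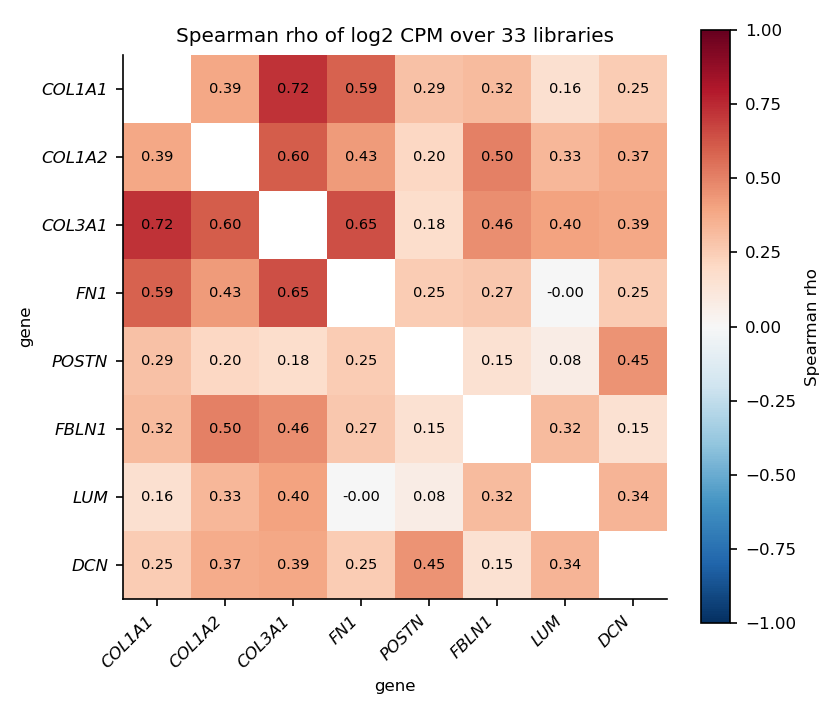
Spearman's rho of log2 CPM for the 28 pairs of the 8 genes over the 33 libraries other than combination replicate 3, each value printed in its cell. The highest values join COL1A1, COL3A1, FN1 and COL1A2, with 0.72 for COL1A1 and COL3A1, and the lowest is that of FN1 and LUM.

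The genes most like the members over the 33 libraries, by Spearman's rho to the mean of their standardised levels, were TNS1 (0.74), MAP3K21 (0.69), DPP4 (0.60), MPZL2 (0.59), MGP (0.58), COL18A1 (0.58), MRC2 (0.58), BIN3 (0.57), THBS1 (0.57) and CYP1B1 (0.56). TNS1 encodes tensin, which ties integrins to actin, MRC2 a collagen uptake receptor, COL18A1 a basement membrane collagen and THBS1 thrombospondin-1. Only 21 genes outside the members (0.15% of those tested) had a rho above 0.5. TNS1 was a gene of low level, with 0.137 to 5.76 CPM (median 1.24) in the 33 libraries and 6.82 CPM in combination replicate 3. DPP4, MPZL2, MGP, BIN3 and CYP1B1 had their highest level of the 33 libraries in increased cholecalciferol replicate 6.

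Taken gene by gene, COL1A1 was most like HTRA3 (rho 0.80), a secreted protease, then COL3A1 and the retinoid carrier CRABP2 (0.68). COL1A2 was most like TAGLN (0.71), a smooth muscle gene, TNS1 (0.68) and GNA13 (0.67), and COL3A1 like COL1A1, the smooth muscle actin ACTA2 (0.66) and FN1. FN1 was most like CRABP2 (0.68), SLC13A3 (0.65) and COL3A1, and FBLN1 like CYBRD1 (0.65), NXT2 (0.63) and RPL36A (0.62). For DCN (TSPAN12 0.73, MAP3K21 0.66, MARCHF11 0.65), LUM (CLINT1 0.73, UBE2K 0.70, EHBP1 0.67) and POSTN (MCM6 0.57, XAB2 0.56, TBCA 0.55) no gene of the matrix lists was among the closest 3. The same held for FBLN1 and COL1A2. By list, the median rho of the genes that are not members to the mean of the members was 0.34 for 9 leptomeninges markers, 0.32 for 10 liver markers and 0.21 for 8 small leucine-rich proteoglycans. It was 0.12 for 26 matrix glycoproteins, 0.11 for 12 mural cell markers, 0.07 for 7 fibrillar collagens, 0.05 for 12 fibroblast markers, 0.03 for 7 skeletal muscle markers and −0.00 over all genes tested.

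The wider matrix pathway showed no called gene either. The 9 lists of matrix components, enzymes, receptors and TGF-beta signalling were read from the fit over all 34 libraries. None of their tested genes passed in 25(OH)D against standard, increased against standard or 25(OH)D against increased cholecalciferol (edgeR, adjusted p below 0.05). For females against castrated males none passed either, but that fit holds combination replicate 3 and is given as a description. The medians of the 9 lists ran from −0.07 to 0.23 for 25(OH)D against standard cholecalciferol and from 0.01 to 0.31 for the increased against the standard dose. They ran from −0.20 to 0.09 for 25(OH)D against the increased dose. For females against castrated males they ran from −0.29 to −0.01 with combination replicate 3, and the range without it is not given here. With the increased dose the highest were the small leucine-rich proteoglycans (8 of 10 genes above 0, median 0.31) and the matrix glycoproteins (22 of 29, median 0.31), and the lowest the enzymes of collagen synthesis (11 of 18, median 0.01). These lists hold the members too, and at an unadjusted p below 0.05 they held 0 of the 10 proteoglycans and 2 of the 29 glycoproteins. Of all genes tested, 50.8% were above 0 and 7.77% had an unadjusted p below 0.05 in that comparison by edgeR. For females against castrated males, mural cell markers had 1 of 12 genes above 0, beside 51.2% of all genes. Their median was −0.44, against −0.20 without combination replicate 3, a castrated male that is high in that list. In either case 0 passed adjustment by edgeR.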

How the data were processed

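Each library has 1 deposited file of unnormalized whole-number read counts for 31907 Ensembl identifiers, of which 15029 matched a symbol in a name table. Per the labels' protocols, frozen tissue was extracted with Trizol and QuantSeq 3′ forward libraries were made. FastQC, TopHat, HTSeq and DESeq2 are named, with no versions, in the submitters' processing notes. The genome build, annotation and strand setting were not given in the sources used here, and no coordinates are printed. The 5 HTSeq categories at the end of each file were left out of all totals. Of all reads listed they hold 16.4 to 29.9% without a feature, 3.63 to 4.68% that are ambiguous and 11.2 to 20.7% that align in several places, so that genes with close copies may be undercounted.

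Counts were fitted with edgeR 4.0.16 in R 4.3.3 (TMM, filter by diet, quasi-likelihood F-test, diet and sex over 34 libraries, Benjamini-Hochberg over 13974 genes, threshold 0.05), with DESeq2 1.42.0, limma 3.58.1 (voom) and other library sets as alternatives. Standard errors come from the F statistic and intervals are 95%. Levels are TMM-scaled CPM, and log2 CPM uses a prior count of 1. Diet and sex come from the labels. Replicates were numbered by accession and are not paired. The series design counts 34 individuals, so p-values refer to the spread between animals. No 2 files were identical. The scripts were tested on simulated counts.

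The members and gene lists were chosen with earlier results of these data known. The named-gene rule takes the 8 members, up to 4 genes per list (the 2 highest medians and the 2 largest ratios in combination replicate 3, or any that passed), the 15 largest ratios in that library, and the 10 genes most like the members with 3 per member. All other genes named (among them COL5A2 as a neighbour, PDGFRA, CLEC3B, IGFBP6 and ACTA2, single markers at 0 and those in the closing section) were chosen after their values were seen.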

Additional observations from a re-analysis of the deposited data

Results flagged for a closer look

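Within each diet, the highest and lowest library of each of the 8 genes was compared with its nearest neighbour by the gap over the whole range (Dixon's 95% critical value). Of 64 gaps, 13 exceeded it, all on the high side and in 4 libraries. The nominal rate of about 1 in 20 groups holds for independent, normally spread values. The gaps are of CPM without a log, and the genes share libraries and vary together. The number of flags therefore cannot be set against that rate. Since the genes were chosen with combination replicate 3 in view, its 6 values here are no independent finding.

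Combination replicate 3 stood apart from the other 7 combination libraries for COL1A2 (133 CPM), COL3A1 (150.4 CPM), POSTN (123 CPM), FBLN1 (41.3 CPM), FN1 (356 CPM) and DCN (55.6 CPM). COL1A1 and LUM in that library were not set apart by this measure.

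Increased cholecalciferol replicate 6 stood apart from the other 9 libraries of its diet for COL1A2 (79.2 CPM), POSTN (19.6 CPM), FN1 (109 CPM), LUM (8.85 CPM) and DCN (24.7 CPM). On the 25(OH)D diet, replicate 4 stood apart for FN1 (121 CPM) and replicate 2 for POSTN (12.5 CPM). No library on standard cholecalciferol stood apart for any of the 8 genes.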

How the results depend on the processing

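No paired analysis was possible because the replicate numbers only follow the order of accession. In 25(OH)D against standard, increased against standard and 25(OH)D against increased cholecalciferol, edgeR called 0 of the 8 genes under every alternative setting. DESeq2 and limma-voom were fitted over all 34 libraries only, and they also called 0 of the 8.

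Member medians moved most for the combination diet. Against standard cholecalciferol the median was 0.94, but 0.090 without combination replicate 3 and 1.91 within file numbers 1 to 24. Leaving out single libraries gave 0.090 to 1.07. Against increased cholecalciferol it was 0.59, but −0.37 without that library (−0.37 to 0.71 over single libraries left out). For 25(OH)D against the combination it was −0.52, but −1.33 within file numbers 1 to 24 (−0.68 to 0.12 over single libraries left out). The only combination libraries within file numbers 1 to 24 are replicates 1, 2 and 3. The 8 genes summed to 71.0, 111 and 1059 CPM in them, so the values of that block rest on combination replicate 3. Genes called between the sexes numbered 11, and 18 with the block of file numbers in the model. Pairs that passed by rho numbered 8, but 14 with combination replicate 3 and 5 without the 2 farthest libraries.

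Some single genes changed sign, and the cause was not tested. With limma-voom this held for POSTN on 25(OH)D against standard cholecalciferol (−0.35), COL1A1 (−0.056) and FN1 (−0.13) on the increased against the standard dose, FBLN1 on 25(OH)D against the increased dose (0.043) and, for females against castrated males, COL1A2 (0.10) and POSTN (0.17). DCN on 25(OH)D against standard cholecalciferol was 0.39 within file numbers 1 to 24 and 0.19 with the block of file numbers in the model. Without a sex term COL1A1 on the increased against the standard dose was −0.012, and without a diet term DCN for the sexes was −0.046. For the sexes, COL1A2 was 0.30 without combination replicate 3, 0.16 without file numbers 30 to 34, 0.19 within 1 to 24 and 0.058 with the block in the model. In the same settings POSTN was 0.56, 0.37, 0.36 and 0.32.

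Depth limits LUM and POSTN most, with as few as 2 reads in a library. A p that misses the threshold does not show equal levels.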

Other observations

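Several genes that did not pass the filter on low counts were high in combination replicate 3 and low elsewhere. They were chosen after their values were seen. SLC6A3, the dopamine transporter, stood at 143 CPM (690 reads), against a median of 0 and a maximum of 0.646 CPM in the other 33 libraries. TH, which makes the precursor of dopamine, stood at 141 CPM (683 reads), against a median of 0.352 and a maximum of 6.24 CPM. The pancreatic genes PRSS2 (91.3 CPM, maximum elsewhere 3.98 CPM), PNLIP (63.8 CPM, 6.46 CPM), CLPS (32.4 CPM, 3.23 CPM) and GP2 (21.5 CPM, 1.24 CPM) were high in the same library, where combination replicate 2 was the next highest for these 4. CPB1, another pancreatic gene, stood at 23.1 CPM, and its next highest library was increased cholecalciferol replicate 8 (4.38 CPM). In combination replicate 2 the 8 matrix genes summed to 111 CPM, below the median of 142 CPM.

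MFAP5, a protein of elastic microfibrils, stood at 31 CPM in combination replicate 3, against a median of 0.783 CPM and a maximum of 11.2 CPM in increased cholecalciferol replicate 6. It is in the list of matrix glycoproteins, whose 29 tested genes do not include it.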
